A study of Homo sapiens with 24 samples.

Results

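Interferon-stimulated genes are the genes that cells switch on when an interferon, a cytokine of antiviral defence, binds its receptor. A list of 45 such genes, TLR3 included, was examined here among 18417 genes, and 43 of the 45 were measured. STAT2, a subunit of the factor that carries the type I interferon signal into the nucleus, had no probe set listed under its own name alone, and GBP1, an interferon-induced GTPase, lay only in a probe set listed for several genes, so neither was analysed here. The members were listed by name, and where a gene had several probe sets the set with the highest mean over all arrays was used.

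The cells were 4 human non-small cell lung cancer (NSCLC) lines, which the study divides into a dependent class (H2009 and H441) and an independent class (A549 and H460) by whether the cells rely on their driver oncogene. Each line stably expressed, by viral transduction, a scrambled shRNA (δscr) or the shRNA δ193 against the coding region of PRKCD, the gene for protein kinase C delta (PKCδ), and 3 biological replicates of each of the 8 groups were profiled, 24 arrays in all. No interferon treatment is named for any group. By the study's methods the stable lines were kept under puromycin, so the levels are those of cultured cells that all carried an shRNA and were under selection, and PKCδ was depleted with 1 shRNA sequence only. Values are log2 array values, on which a difference of 1 is a doubling of signal, and each gene was compared across samples. A change was called where limma gave an adjusted p under 0.05 and the log2 change was at least 0.32 in size.

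In the textbook pathway, RNA sensors in the cytosol and in endosomes detect viral RNA and induce interferon. Interferon receptors then act through JAK kinases, and a complex that includes STAT2 and IRF9, ISGF3, binds the interferon-stimulated response element (ISRE) in the promoters of target genes. A different element, the gamma-activated site (GAS), serves the response to interferon gamma. Many target genes encode proteins that degrade or sequester viral RNA, block viral entry or conjugate the ubiquitin-like protein ISG15 to other proteins, and in tumor cell lines a part of this program is often expressed with no added interferon.

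Promoter sequences were taken from RefSeq on GRCh38.p14, from 250 bases before to 50 bases after each annotated transcription start, and 36 of the 45 members had such a window. The ISRE core was searched as GAAANNGAAA and the GAS core as TTCNNNGAA, where N is any base, on both strands. At least 1 ISRE core was present in 27 of the 36 members (75.0%), against 4.38% of the 27305 genes with a window in RefSeq. A GAS core was present in 11 of the 36 (30.6%), against 9.38% of all those genes. Of the 52 ISRE matches in member windows, 49 began before the start, 5 pairs of matches overlapped each other, and 8 matches overlapped a GAS match. All windows of a gene with several starts were counted, so a site that lies in several windows, as in IFI27, counts more than once. These are matches of letters and not measured binding sites. The windows below are shown because they belong to the members that changed in several lines and to members with the largest increases, with the ISRE core on either strand in capitals. DDX60, an RNA helicase-like cofactor of RIG-I, has matches whose first bases lie at -88 and -53 from the start (chr4:168318703-168319002, minus strand). IFIT1, which binds viral RNA that lacks cap methylation, has matches at -116 and -103 (chr10:89392373-89392672, plus strand). BST2, also called tetherin, holds budding virions at the cell surface and has overlapping matches at -130 and -124 (chr19:17405581-17405880, minus strand).
DDX60: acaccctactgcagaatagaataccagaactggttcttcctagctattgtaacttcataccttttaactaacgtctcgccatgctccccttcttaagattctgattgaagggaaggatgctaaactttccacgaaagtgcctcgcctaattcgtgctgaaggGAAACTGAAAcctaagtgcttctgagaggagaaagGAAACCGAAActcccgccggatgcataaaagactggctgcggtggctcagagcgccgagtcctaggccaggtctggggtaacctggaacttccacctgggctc
IFIT1: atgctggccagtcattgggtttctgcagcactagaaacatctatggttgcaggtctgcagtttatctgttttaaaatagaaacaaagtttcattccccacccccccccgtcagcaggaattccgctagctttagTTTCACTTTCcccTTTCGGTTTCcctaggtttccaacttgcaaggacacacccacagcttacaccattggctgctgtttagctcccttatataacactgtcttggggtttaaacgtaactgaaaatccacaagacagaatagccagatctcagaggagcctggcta
BST2: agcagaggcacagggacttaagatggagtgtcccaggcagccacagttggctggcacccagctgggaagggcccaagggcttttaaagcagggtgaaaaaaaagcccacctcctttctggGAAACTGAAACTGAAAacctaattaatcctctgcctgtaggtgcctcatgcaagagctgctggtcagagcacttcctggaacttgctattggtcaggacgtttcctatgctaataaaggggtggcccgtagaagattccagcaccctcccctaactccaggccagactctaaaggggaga

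The next windows belong to the members called in 2 or more lines for which RefSeq gave a window here. SAMD9 and SAMD9L are paralogous cytosolic restriction factors that act on translation, and they are adjacent genes. SAMD9 has a match at -136 (chr7:93117930-93118229, minus strand), and SAMD9L has none in its window (chr7:93148336-93148635, minus strand). RIGI (DDX58), the cytosolic sensor of viral RNA with a free 5′ triphosphate, also has none (chr9:32526147-32526446, minus strand). HERC5, the main ligase that attaches ISG15 to new proteins, has matches at -125, -119 and -74 (chr4:88456869-88457168, plus strand). PARP14, a mono-ADP-ribosyltransferase, has a match at -29 (chr3:122680589-122680888, plus strand).
SAMD9: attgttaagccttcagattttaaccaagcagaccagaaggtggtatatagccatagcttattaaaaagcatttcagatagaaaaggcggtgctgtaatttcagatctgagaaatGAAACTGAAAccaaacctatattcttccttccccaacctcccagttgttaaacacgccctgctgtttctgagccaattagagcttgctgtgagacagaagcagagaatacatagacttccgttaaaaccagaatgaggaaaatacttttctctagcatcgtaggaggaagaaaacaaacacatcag
SAMD9L: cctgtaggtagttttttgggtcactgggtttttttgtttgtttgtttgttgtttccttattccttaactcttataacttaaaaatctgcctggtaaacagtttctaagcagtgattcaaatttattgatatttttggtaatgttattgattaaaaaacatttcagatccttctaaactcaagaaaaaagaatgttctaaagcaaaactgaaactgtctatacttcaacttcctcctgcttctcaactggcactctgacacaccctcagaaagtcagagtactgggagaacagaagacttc
RIGI: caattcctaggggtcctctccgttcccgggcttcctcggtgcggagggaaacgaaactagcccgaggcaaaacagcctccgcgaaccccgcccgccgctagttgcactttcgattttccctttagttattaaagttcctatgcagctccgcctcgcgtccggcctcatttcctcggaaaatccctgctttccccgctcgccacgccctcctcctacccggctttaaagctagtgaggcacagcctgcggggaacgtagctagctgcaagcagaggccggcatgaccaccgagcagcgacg
HERC5: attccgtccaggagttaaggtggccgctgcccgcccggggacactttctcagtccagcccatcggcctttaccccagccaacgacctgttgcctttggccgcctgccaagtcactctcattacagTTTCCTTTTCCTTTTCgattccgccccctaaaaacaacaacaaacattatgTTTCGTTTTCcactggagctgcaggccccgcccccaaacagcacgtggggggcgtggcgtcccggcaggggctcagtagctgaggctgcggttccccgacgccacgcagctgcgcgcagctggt
PARP14: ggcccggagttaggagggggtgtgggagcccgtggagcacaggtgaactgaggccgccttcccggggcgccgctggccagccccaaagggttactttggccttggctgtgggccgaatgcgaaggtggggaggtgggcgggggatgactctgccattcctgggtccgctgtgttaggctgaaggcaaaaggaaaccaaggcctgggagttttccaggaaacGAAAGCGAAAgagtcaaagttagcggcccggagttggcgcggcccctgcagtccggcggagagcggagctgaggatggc

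**Figure D1:**
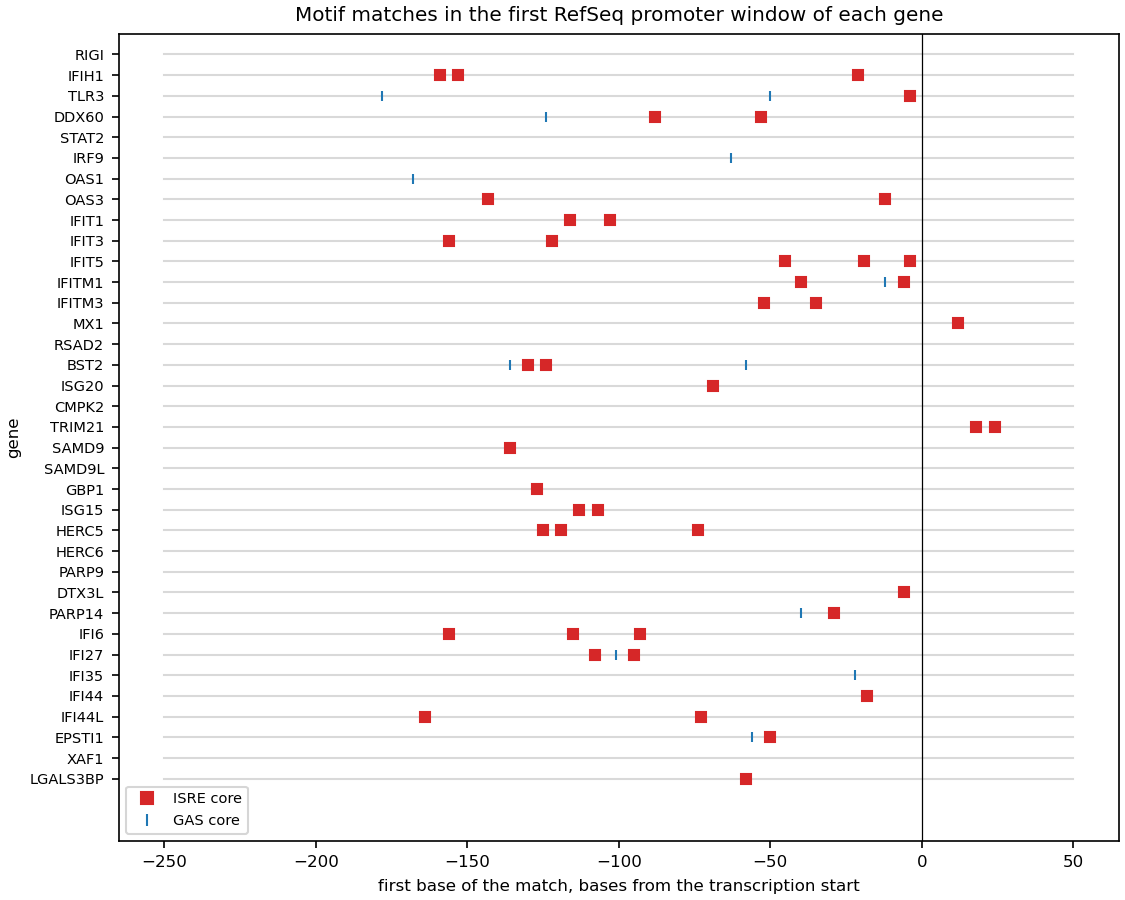
Position of ISRE core matches (red squares) and GAS core matches (blue ticks) in the first RefSeq window of each of 36 members, with the distance of the first base of the match from the transcription start in bases on the x axis and the gene on the y axis. Grey lines mark the window from 250 bases before to 50 bases after the start, and most ISRE matches lie before the start.

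PRKCD was lower with δ193 in all 4 lines, with no overlap between δscr and δ193 arrays in any of them. The change in its log2 value was -2.40 ± 0.20 (SE, n = 3 arrays per group) for H441, -2.25 ± 0.20 for H2009, -2.03 ± 0.20 for H460 and -1.26 ± 0.20 for A549. The array medians ranged from 4.78 to 4.91, and the highest correlation was 0.9977 between arrays of a group and 0.9938 between groups. The H441 arrays of a group correlated less than that, at 0.9918 to 0.9923 with δscr and 0.9819 to 0.9901 with δ193. Replicates of H441 were the least alike: the median over genes of their residual variance exceeded that of a typical other line 2.55 times. Of the 5 epithelial markers, the keratins KRT8 and KRT18 read between 11.2 and 12.6 on every array, but KRT19 ranged from 4.78 to 10.8, CDH1 from 4.52 to 11.3 and EPCAM from 4.53 to 11.3. PTPRC, CD3E and DCN, which mark leukocytes, T cells and fibroblasts, read between 2.47 and 4.25, but other markers of these lists read higher. The fibroblast marker COL1A1 read between 5.822 and 6.898, and COL1A2 lay above DCN and below COL1A1 on every array. The immune marker NKG7 read between 4.84 and 5.842, and the myeloid marker CD68 between 9.15 and 10.7. Of 18 markers measured, 5 were called in at least 1 line: the epithelial KRT19 and CDH1 and the endothelial PECAM1 were lower in H441, KRT19 was higher in H460, and of the myeloid markers CD14 was lower in A549 and higher in H460 and LYZ was higher in A549. The mean of the 6 immune markers lay between 4.76 and 5.36 on every array, and that of the 7 fibroblast and endothelial markers between 4.02 and 4.44. The mean of the 5 epithelial markers went from between 8.94 and 9.12 with δscr to between 8.41 and 8.62 with δ193 in H441. In H2009 it went from between 11.27 and 11.32 to between 11.13 and 11.16. In H460 it rose, from between 8.10 and 8.22 to between 8.24 and 8.26, and in A549 the ranges overlapped. The part of these changes in the results below was not tested.

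A part of the interferon-stimulated genes differed between δ193 and δscr cells in each line. In H441 14 of the 43 measured members were called, in H460 7, in H2009 6 and in A549 4. This order depends on the spread that all lines share in the fit. Fitted alone, the lines gave 6 in H441, 14 in H460, 8 in H2009 and 4 in A549. The share of all genes called was not computed for those fits. In the shared fit, at least 1 line called 23 of the 43 (53.5%), against 22.5% of all genes tested. The calls split by direction into 4 lower and 2 higher in H2009, where 2.25% of all genes were called lower and 2.66% higher. H441 had 6 lower and 8 higher, where the shares among all genes were 7.22% and 7.09%. A549 had 3 lower and 1 higher (2.58% and 2.05% of all genes), and H460 had 6 lower and 1 higher (3.44% and 2.01%). The median change over the 43 members was -0.09 in H460, 0.03 in H441 and 0.00 in H2009 and A549, beside 0.00 to 0.01 over all genes. The median size of a change, without its sign, was 0.20 in H2009, beside 0.11 over all genes, 0.17 in H441, beside 0.15, 0.12 in A549, beside 0.10, and 0.19 in H460, beside 0.11. In RNA from whole cultures, fewer cells that express a gene and less RNA per cell cannot be told apart.

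**Figure D2:**
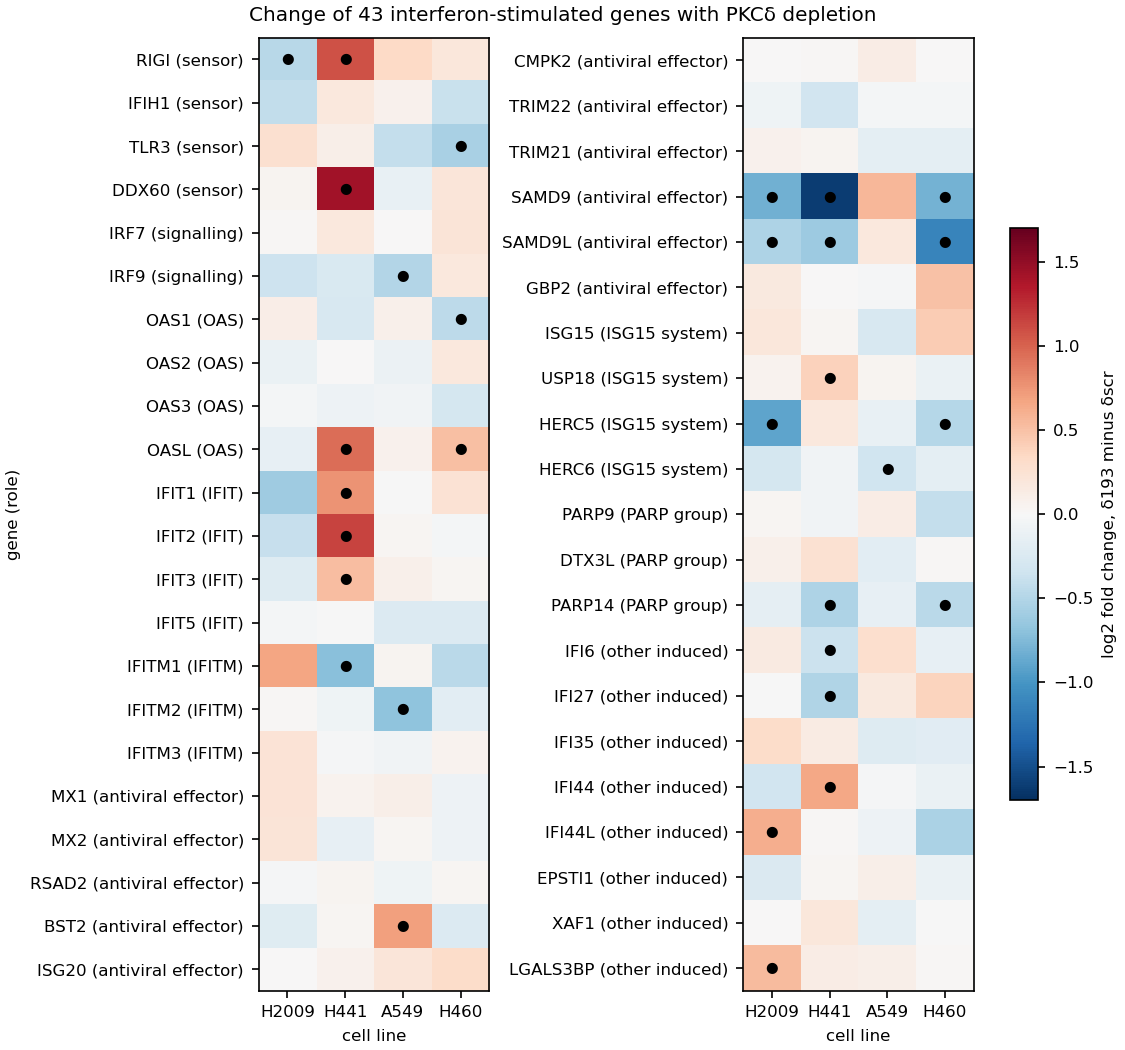
Log2 fold change (δ193 minus δscr, color scale) of the 43 measured members, grouped by role on the y axis, in each of the 4 cell lines on the x axis, where a black dot marks a called change. SAMD9 and SAMD9L are lower in H2009, H441 and H460, and IFIT1, IFIT2, IFIT3, DDX60, RIGI and OASL are higher in H441.

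None of the members was called in all 4 lines. SAMD9 and SAMD9L were called in 3 (4.65% of the members, against 0.999% of all genes), RIGI, OASL, HERC5 and PARP14 in 2 (9.30%, against 4.21%), and the other 17 in 1 (39.5%, against 17%). Of the 6 called in 2 or 3 lines, 5 were called in 1 direction, and RIGI was called in both.

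SAMD9 showed the largest decrease of any member. Its δscr arrays in H2009 read 8.54, 8.62 and 8.47, and its δ193 arrays 7.80, 7.71 and 7.66. H441 had 6.57, 6.74 and 6.60 with δscr and 5.06, 4.48 and 5.53 with δ193. H460 had 7.46, 7.58 and 7.65 with δscr and 6.77, 6.87 and 6.63 with δ193. In these 3 lines no δ193 array reached the lowest δscr array. The change was -0.82 ± 0.17 (SE, adjusted p = 0.00409) in H2009, -1.61 ± 0.17 (adjusted p = 4.86e-07) in H441 and -0.80 ± 0.17 (adjusted p = 0.0041) in H460. A549, which had the lowest level, read 4.66, 4.42 and 4.76 with δscr and 5.37, 5.30 and 4.88 with δ193. There the arrays did not overlap in the opposite direction, and the change of 0.57 ± 0.17 missed the threshold (adjusted p = 0.0526).

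SAMD9L, its neighbor, was lower in the same 3 lines. In H2009 it read 5.86, 5.52 and 5.49 with δscr and 5.20, 5.02 and 5.10 with δ193. In H441 the values were 4.86, 5.27 and 5.09 and then 4.58, 4.15 and 4.66. H460 showed the largest drop, from 7.26, 7.35 and 7.34 to 6.40, 6.14 and 6.04. The groups did not overlap in any of the 3 lines. The changes were -0.52 ± 0.13 (adjusted p = 0.0222), -0.61 ± 0.13 (adjusted p = 0.00234) and -1.13 ± 0.13 (adjusted p = 5.03e-06), in that order. In A549 the arrays overlapped, at 4.15, 3.81 and 3.85 against 4.10, 4.13 and 4.13, with a change of 0.19 ± 0.13 (adjusted p = 0.618). The call in H441 was lost when that line was fitted alone (adjusted p = 0.0996), and the call in H2009 was lost without δscr replicate 1, δ193 replicate 2 or δ193 replicate 3 (adjusted p 0.0693 to 0.155).

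RIGI was lower in H2009 and higher in H441. The H2009 arrays read 7.67, 7.62 and 7.51 with δscr and 7.21, 7.18 and 7.01 with δ193, a change of -0.47 ± 0.13 (adjusted p = 0.0348). The H441 arrays read 5.39, 4.79 and 4.77 with δscr and 6.01, 6.24 and 5.95 with δ193, a change of 1.09 ± 0.13 (adjusted p = 3.05e-06). The groups were separate in both lines. A549 went from 5.85, 6.16 and 6.12 to 6.44, 6.46 and 6.22, and H460 from 5.58, 5.62 and 5.67 to 5.88, 5.83 and 5.74. Neither change was called, at 0.34 ± 0.13 (adjusted p = 0.166) and 0.19 ± 0.13 (adjusted p = 0.509). The difference between the changes in H2009 and H441 was -1.55 ± 0.18 (adjusted p = 1.09e-05). The H2009 call was lost when any 1 of the 6 H2009 arrays was left out (adjusted p 0.0536 to 0.152).

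Of the other RNA sensors, DDX60 rose in H441 more than any other member. Its arrays there read 5.89, 5.98 and 5.51 with δscr and 7.34, 7.68 and 6.65 with δ193, a change of 1.43 ± 0.18 (adjusted p = 5.4e-06). Every δ193 array lay above every δscr array, by a wide and uneven margin. In H2009, where its control level was highest, the change was 0.04, in A549 -0.13 and in H460 0.21, and none was called. TLR3, the endosomal receptor for double-stranded RNA, was called in H460, from 7.15, 7.12 and 7.11 to 6.59, 6.50 and 6.64, a change of -0.55 ± 0.12 (adjusted p = 0.00562) with no overlap. In A549 its change of -0.41 ± 0.12 missed the threshold (adjusted p = 0.0503), and the changes in H2009 and H441 were 0.28 and 0.10. IFIH1, the cytosolic sensor MDA5, was called in no line and its changes ranged from -0.41 in H2009 to 0.18 in H441.

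Both measured signaling members are transcription factors. IRF9, the DNA-binding subunit of ISGF3, was lower in A549, where the arrays read 6.65, 6.40 and 6.28 with δscr and 6.10, 5.80 and 5.95 with δ193. The groups were separate and the change was -0.50 ± 0.14 (adjusted p = 0.0409). It was -0.35 in H2009, -0.26 in H441 and 0.17 in H460, with no call. IRF7, which amplifies type I interferon production, changed by 0.00 to 0.22 and was not called. The IRF9 call was lost without any 1 of 10 arrays, which were A549 δscr replicates 1 and 2, A549 δ193 replicates 2 and 3, H2009 δ193 replicate 3, H460 δscr replicates 2 and 3 and all 3 H460 δ193 arrays (adjusted p 0.0504 to 0.211).

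The OAS family senses double-stranded RNA, and OAS1, OAS2 and OAS3 then make oligoadenylates that trigger the decay of RNA, whereas OASL lacks that activity and enhances RIG-I signaling. OASL rose in H441, from 7.02, 6.82 and 6.78 to 8.01, 8.05 and 7.42, and in H460, from 5.73, 5.69 and 5.69 to 6.19, 6.24 and 6.21. The groups did not overlap in either line, and the changes were 0.95 ± 0.12 (adjusted p = 7.83e-06) and 0.51 ± 0.12 (adjusted p = 0.0114). In H2009 it went from 6.58, 6.65 and 6.66 to 6.44, 6.46 and 6.59, and A549 had 4.81 to 5.05 with δscr and 4.87 to 5.17 with δ193. Those groups overlapped and the changes of -0.14 and 0.07 were not called. OAS1 fell in H460 by 0.45 ± 0.11 (adjusted p = 0.0121), a call lost without δscr replicate 1 or δ193 replicate 3 (adjusted p 0.0503 and 0.0528). OAS2 and OAS3 were called in no line.

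Proteins of the IFIT family bind foreign RNA and restrict its translation. In H441 3 of the 4 rose. IFIT2 went from 5.61, 5.21 and 5.40 to 6.37, 7.07 and 6.22, a change of 1.15 ± 0.17 (adjusted p = 6.27e-05) with separate groups. IFIT1 changed by 0.76 ± 0.18 and IFIT3 by 0.53 ± 0.12, and IFIT5 by 0.00. The 4 genes are close neighbors on chromosome 10. In H2009 the values of IFIT1, IFIT2 and IFIT3 were -0.60, -0.39 and -0.21, with no call (IFIT1 adjusted p = 0.0565). The H441 calls of IFIT1 and IFIT3 were lost when that line was fitted alone (adjusted p = 0.0706 and 0.0788).

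IFITM proteins sit in cell membranes and block fusion of entering viruses. IFITM2 fell in A549, from 7.39, 7.77 and 7.74 to 7.05, 6.68 and 7.11, a change of -0.69 ± 0.14 (adjusted p = 0.00286). The δ193 arrays lay below all δscr arrays. IFITM1 fell in H441, from 7.25, 7.18 and 6.63 to 6.40, 6.90 and 5.63, a change of -0.71 ± 0.20 (adjusted p = 0.0171), but those groups overlapped and the call was lost with the line fitted alone (adjusted p = 0.249). It was also lost without H441 δscr replicate 1 or 2 or δ193 replicate 3 (adjusted p 0.0692 to 0.122). In H2009 IFITM1 changed by 0.67 ± 0.20 with separate groups and no call (adjusted p = 0.0588). IFITM3 changed by -0.06 to 0.23 and was not called. The 3 genes are adjacent and close in sequence, and how far their probes cross-hybridize was not tested.

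Among the other antiviral effectors, BST2 was called in A549, where its level was lowest. The A549 arrays read 4.10, 3.91 and 4.36 with δscr and 4.91, 4.78 and 4.78 with δ193, a change of 0.70 ± 0.11 (adjusted p = 0.000406) with separate groups. Even so, the δ193 cells stayed far below the other lines, whose δscr arrays read 7.86 to 8.34. The changes there were -0.21 in H2009, 0.03 in H441 and -0.23 in H460, with no call. MX1 and MX2, dynamin-like GTPases that trap viral components, RSAD2 (viperin), which makes a chain-terminating nucleotide, and its neighbor CMPK2, a mitochondrial nucleotide kinase, were called in no line. Nor were ISG20, an exonuclease, TRIM22 and TRIM21, ubiquitin ligases, and GBP2, a GTPase of the guanylate-binding family. RSAD2 read only 3.03 to 3.84 on the 24 arrays, and no background level was measured.

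In the ISG15 system HERC5 was called lower in 2 lines. H2009 went from 6.82, 6.57 and 6.55 to 6.00, 5.73 and 5.52, and H460 from 4.76, 4.74 and 4.91 to 4.41, 4.20 and 4.35. The groups were separate in both lines, with changes of -0.90 ± 0.13 (adjusted p = 0.000164) and -0.49 ± 0.13 (adjusted p = 0.0305). In H441 the arrays overlapped at 5.45, 5.35 and 5.32 against 5.70, 5.21 and 5.73, and in A549 at 4.85, 4.53 and 4.56 against 4.54, 4.65 and 4.38. HERC6, its neighbor, fell in A549 from 6.32, 6.26 and 6.21 to 6.09, 5.78 and 5.92, a change of -0.33 ± 0.10 (adjusted p = 0.0492). That was the call closest to the threshold, and it was lost without any 1 of 17 of the 24 arrays. The H460 call of HERC5 was lost without any 1 of the 6 H460 arrays (adjusted p 0.0536 to 0.147). USP18, the protease that removes ISG15 and restrains the interferon receptor, changed by 0.39 ± 0.12 in H441 (adjusted p = 0.0272, and 0.228 with the line fitted alone). ISG15 itself was not called, with changes from -0.28 in A549 to 0.43 in H460 (adjusted p = 0.0549).

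PARP9 and DTX3L form a complex that modifies histones and other proteins, and PARP14 lies near them on chromosome 3. PARP14 fell in H441, from 7.05, 7.16 and 7.37 to 6.66, 6.66 and 6.70, and in H460, from 7.09, 7.20 and 7.23 to 6.66, 6.79 and 6.69. Its groups were separate in both lines, and the changes were -0.52 ± 0.10 (adjusted p = 0.00108, and 0.0744 with H441 fitted alone) and -0.46 ± 0.10 (adjusted p = 0.00768). The H2009 arrays overlapped at 6.74, 6.77 and 6.52 against 6.69, 6.43 and 6.45, and the A549 arrays at 5.95, 6.09 and 6.18 against 5.99, 6.07 and 5.73. PARP9 changed by -0.40 in H460 (adjusted p = 0.0823) and neither PARP9 nor DTX3L was called in any line.

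Of the other induced genes, both increases in H2009 were in this group. LGALS3BP, a secreted glycoprotein that binds galectin-3, went from 8.89, 8.87 and 8.76 to 9.40, 9.39 and 9.36, a change of 0.54 ± 0.11 (adjusted p = 0.00262). IFI44L went from 7.57, 7.24 and 7.27 to 7.97, 7.98 and 7.98, a change of 0.61 ± 0.18 (adjusted p = 0.0413). The groups were separate for both genes. The IFI44L call was lost when the array medians were set equal and without any 1 of 12 arrays, which were H2009 δscr replicates 2 and 3, all 3 H2009 δ193 arrays, A549 δ193 replicate 2 and all 6 H460 arrays (adjusted p 0.0509 to 0.148). IFI44, the adjacent paralog, rose in H441 by 0.66 ± 0.11 and changed by -0.32 in H2009, with no call. IFI6 and IFI27, small mitochondrial proteins linked to apoptosis, fell in H441 by 0.37 ± 0.11 and 0.52 ± 0.13, calls that were lost with the line fitted alone (adjusted p = 0.264 and 0.204). IFI35, a partner of N-myc interactor, EPSTI1, an interferon-inducible stromal interaction gene, and XAF1, an antagonist of the apoptosis inhibitor XIAP, were called in no line. EPSTI1 read 2.72 to 3.44 over all arrays.

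**Figure D3:**
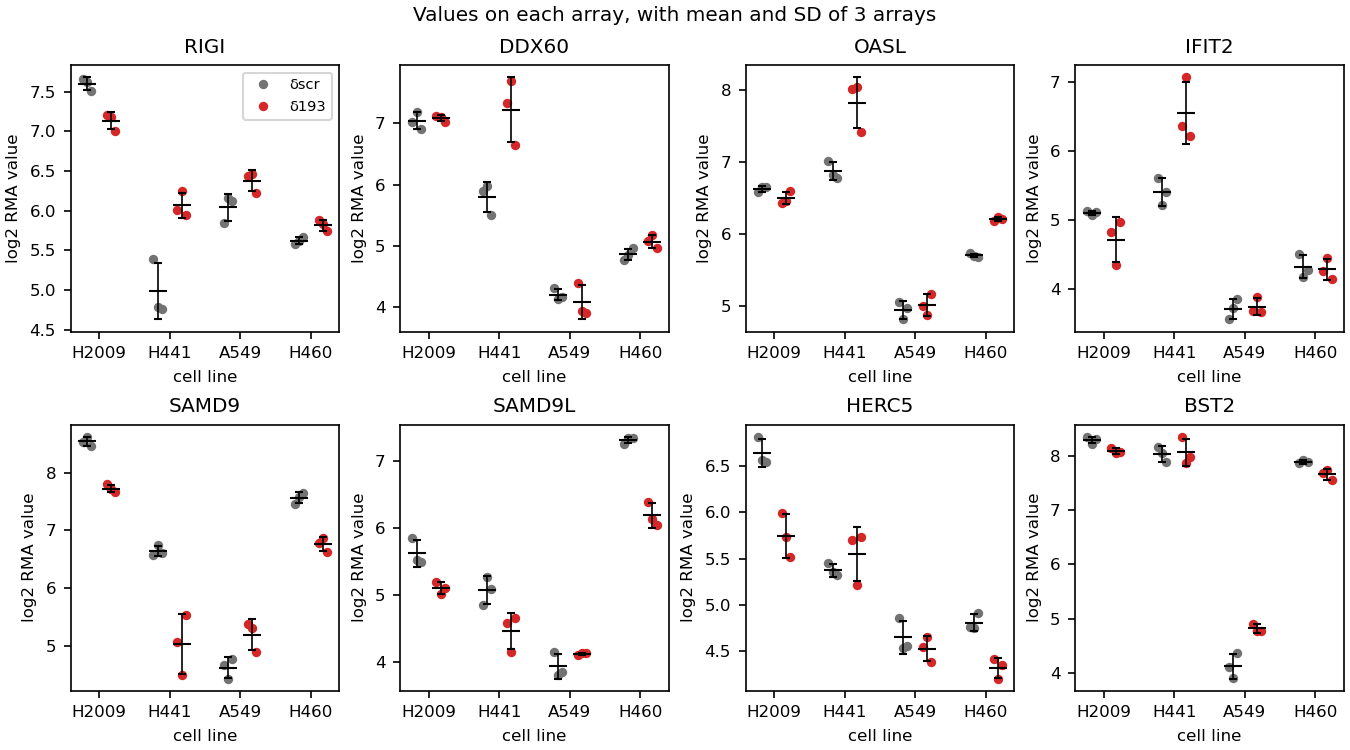
Log2 RMA value on each of the 24 arrays for 8 members, with δscr in grey and δ193 in red for each cell line on the x axis, and bars for the mean and SD of 3 arrays. SAMD9 and SAMD9L fall in 3 lines, RIGI falls in H2009 and rises in H441, and BST2 in A549 stays below the other lines.

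A total of 20 measured members were called in no line, and their changes ranged from -0.41 to 0.50. In 12 of them every change was under 0.3 in size. An unadjusted p under 0.05 was reached in at least 1 line by 10 of the 20, so a miss does not show that the cells had equal levels.

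The comparison across lines asked whether a gene changed alike in all of them. By limma's F test, the change differed among lines for 19 of the 43 members (44.2%), against 14.1% of all genes. SAMD9 (F adjusted p = 1.01e-05), RIGI (3.02e-05) and SAMD9L (0.000338) had the smallest values. For SAMD9, A549 stood apart: the change in H2009 minus that in A549 was -1.39 ± 0.24 (adjusted p = 0.00121), the change in H2009 minus that in H441 was 0.79 ± 0.24 (adjusted p = 0.0444), and that in H2009 minus that in H460 was -0.02 ± 0.24 (adjusted p = 0.99). For BST2 it was again A549, with a change 0.93 ± 0.16 above that of H460 (adjusted p = 0.000891). PARP14, called in H441 and H460, gave an F adjusted p of 0.123, so a difference among lines was not shown.

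Within the dependent class, the change differed between H2009 and H441 for 11 of the 43 members (25.6%), against 7.12% of all genes. In 8 of the 11 the change in H2009 was the lower of the pair, and in IFITM1, SAMD9 and IFI6 it was the higher. Of the 8 members that rose in H441, all but USP18, which are DDX60, IFIT2, RIGI, OASL, IFIT1, IFI44 and IFIT3, had a change between -0.60 and 0.04 in H2009. Since these were taken for their rise in H441, their values side by side are a description. The difference between the lines (H2009 minus H441) was -1.38 ± 0.25 for DDX60 (adjusted p = 0.00109), -1.54 ± 0.25 for IFIT2 (adjusted p = 0.000319), -1.09 ± 0.17 for OASL (adjusted p = 0.000275) and -1.37 ± 0.26 for IFIT1 (adjusted p = 0.00167). It was -0.98 ± 0.15 for IFI44 (adjusted p = 0.000223) and -0.74 ± 0.17 for IFIT3 (adjusted p = 0.0082), while USP18, at -0.34 ± 0.17, was not called (adjusted p = 0.285). HERC5 differed in the same direction, by -1.07 ± 0.19 (adjusted p = 0.000857), and IFITM1 in the opposite one, by 1.38 ± 0.29 (adjusted p = 0.00396). H441 was also the line with the widest spread between replicates.

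**Figure D4:**
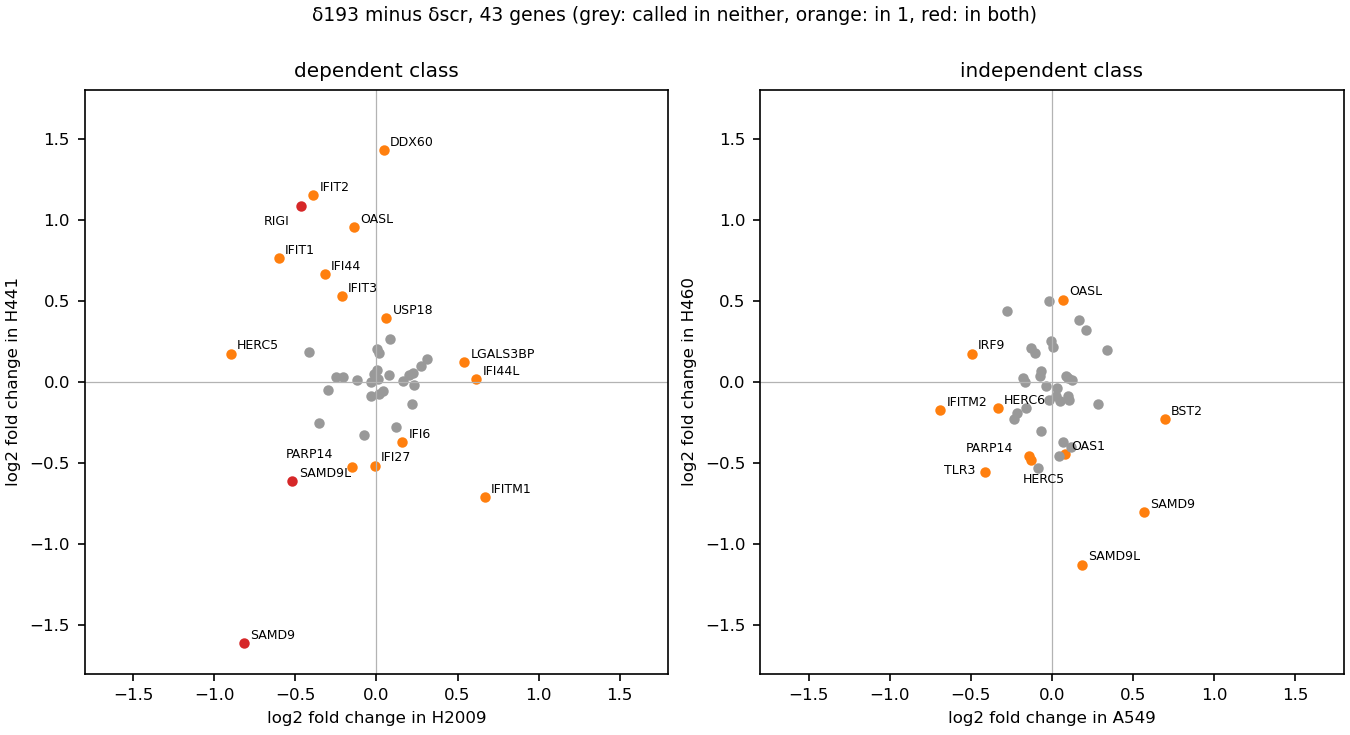
Log2 fold change (δ193 minus δscr) of each of the 43 members in H441 against H2009, left, and in H460 against A549, right, where each point is a gene. Grey points are called in neither line, orange in 1 and red in both, and on the left the genes highest in H441 lie at or left of 0 for H2009.

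Between the classes, the mean change of the dependent lines minus that of the independent lines was called for 6 of the 43 members, against 4.65% of all genes. SAMD9 had a difference of -1.10 ± 0.17 (adjusted p = 0.000345) and IFI27 of -0.54 ± 0.13 (adjusted p = 0.0138). DDX60 (0.70 ± 0.18, adjusted p = 0.0221), TLR3 (0.67 ± 0.12, adjusted p = 0.0018), IFI44L (0.62 ± 0.18, adjusted p = 0.0411) and IFI35 (0.43 ± 0.09, adjusted p = 0.00748) differed the other way. For TLR3, IFI35 and IFI44L both dependent lines had a change above 0 and both independent lines below it, though IFI44L in H441 was at 0.01. For IFI27 the signs were the reverse, though its change was -0.01 in H2009 beside -0.52 in H441, a call lost with H441 fitted alone. For DDX60 the difference came with a change of 1.43 in H441 and 0.04 in H2009, and for SAMD9 the independent lines themselves had opposite signs.

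The δscr cells alone gave the level of each member in control cells of each line. The level differed among the 4 lines for 42 of the 43 members (97.7%), against 73.7% of all genes, and RSAD2 was the exception (adjusted p = 0.0512). A549 was the lowest line for 22 members (51.2%), whereas it was the lowest for 21.6% of all genes, and it was the highest for 6. The highest line was H441 for 15 members, H2009 for 12 and H460 for 10. IFITM3 had the widest range, 30.1-fold. Its δscr arrays read 5.26, 5.35 and 5.05 in A549, 9.28, 8.63 and 8.96 in H2009, 10.35, 9.91 and 10.01 in H441 and 10.04, 10.27 and 10.07 in H460. H441 and H460 did not differ beyond their spread (-0.04 ± 0.17, adjusted p = 0.857). IFI44 read 3.73, 3.36 and 3.56 in A549 and 7.88, 7.71 and 7.84 in H2009, a 19.1-fold range with H460 and H441 between. BST2 had a range of 18.0-fold, IFI44L 17.4-fold, IFITM1 15.9-fold and SAMD9 15.2-fold, in each case with A549 lowest. No background level was measured, so for genes that read low in A549, such as IFI44 and BST2, these folds are ratios of array values and a signal above background in A549 was not shown.

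OAS1 ran the other way. It read 10.22, 9.85 and 9.98 in A549 and 6.27, 6.30 and 6.18 in H2009, a 13.6-fold range, with H441 at 8.07, 8.18 and 7.82 and H460 at 8.45, 8.38 and 8.42. All 6 pairs of lines differed for this gene. OAS3 and IRF9 were also highest in A549, over ranges of 2.70-fold and 2.19-fold. Members highest in H2009 included RIGI, DDX60, IFIT1, IFIT3, IFIH1 and HERC5, with ranges of 3.99-fold to 7.35-fold. Members with the narrowest ranges were RSAD2 (1.28-fold), XAF1 (1.30-fold), EPSTI1 (1.31-fold) and IRF7 (1.36-fold), beside CMPK2, whose range on the log2 scale was 0.32.

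**Figure D5:**
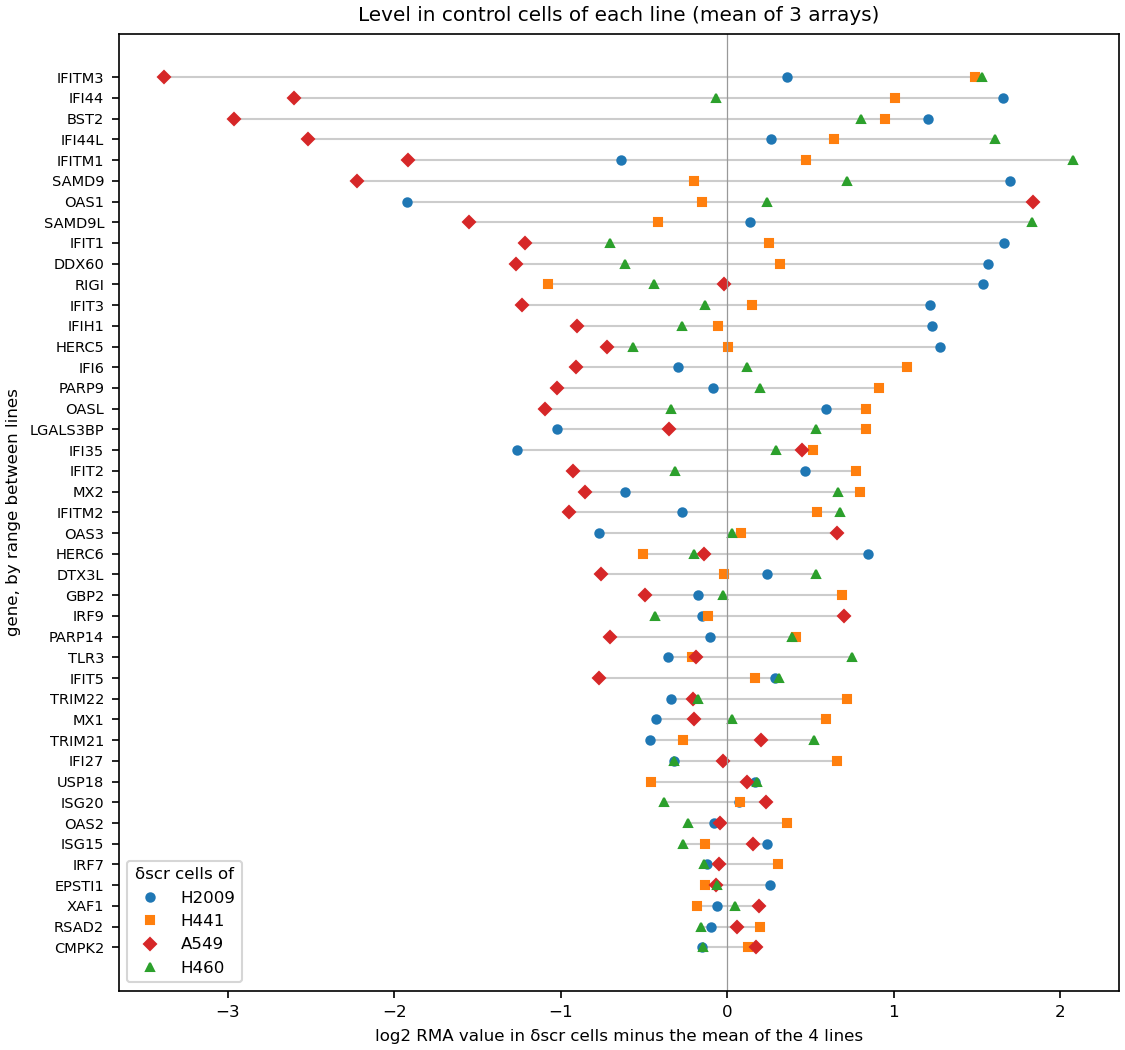
Mean log2 RMA value of 3 δscr arrays in each cell line, minus the mean of the 4 lines for that gene, on the x axis for the 43 members on the y axis, ordered by the range between lines. Red diamonds for A549 lie at the left end for 22 genes, and OAS1 at the right end is the widest exception.

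Pair by pair, H441 and A549 differed for 36 of the 43 members (48.4% of all genes were called for that pair), of which 28 were higher in H441. H2009 and A549 differed for 30 (41.4% of all genes), 23 of them higher in H2009, and A549 and H460 for 29 (38.9%), 23 of them higher in H460. By direction against A549, 22.6% of all genes were higher and 25.8% lower in H441. The shares were 21% and 20.5% in H2009, and 20.6% and 18.4% in H460. The pairs without A549 were more even. H2009 and H441 differed for 30 (49.3%), with 13 higher in H2009, H2009 and H460 for 29 (35.5%), with 14 higher in H2009, and H441 and H460 for 26 (45.4%), with 16 higher in H441. Over all genes, the first line of these pairs was higher for 25.2%, 16.6% and 21.2%, and lower for 24.2%, 19% and 24.1%, in that order. The control arrays are shared between these pairs.

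Calls were found with and without an ISRE core in the window. Of 26 measured members with an ISRE core 14 were called in a line, and of 8 with a window but no core 5 were. IRF9, OAS1, HERC6, RIGI and SAMD9L were the 5 without a core. For comparison, 22.5% of the whole gene set had a call in any line. Calls of genes outside the list were not split by ISRE core, so a link between core and call was not tested.

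Other genes of the interferon pathway, 50 in all with 47 measured, were examined beside the members. The other 3 were not analysed here. Of the 47, 17 (36.2%) were called in at least 1 line, beside the 22.5% of all genes given above. By line and direction, the share called lower was 12.8% in A549 (2.58% of all genes), 12.8% in H441 (7.22%), 6.38% in H460 (3.44%) and 4.26% in H2009 (2.25%). The share called higher was 8.51% in H441 (7.09%) and 2.13% in H460 (2.01%). None of the 7 measured interferon ligands (IFNB1, IFNE, IFNK, IFNG, IFNL1, IFNL2 and IFNL3) was called by limma in any line, and none had an unadjusted p under 0.05. In H2009 the interferon lambda receptor subunit IFNLR1 fell by 0.58 ± 0.11 and the adaptor MYD88 by 0.43 ± 0.13. In H441 4 rose, namely the DNA sensor CGAS (0.63 ± 0.13), the transcription factor IRF1 (0.53 ± 0.17), the RIG-I ubiquitin ligase TRIM25 (0.37 ± 0.09) and NLRC5 (0.36 ± 0.09), a transactivator of MHC class I genes. The 6 that fell there were the ISG15-activating enzyme UBA7 (-0.70 ± 0.16), the receptor subunits IFNGR1 (-0.63 ± 0.13) and IL10RB (-0.43 ± 0.09), the kinase IKBKE (-0.51 ± 0.12), and the adaptors TICAM1 (-0.42 ± 0.10) and MYD88 (-0.41 ± 0.13).

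A549 had 6 pathway genes called lower and none called higher by limma, and 2 higher at an unadjusted p under 0.05, IRF3 and B2M. The transcription factor IRF3 rose by 0.3206 ± 0.08 (adjusted p = 0.0152) and missed only the limit on fold change. The receptor-associated kinase JAK1 fell by 0.67 ± 0.08 (adjusted p = 1.18e-05), from 9.81 ± 0.11 to 9.14 ± 0.07 (SD, n = 3). IRF8 fell by 0.50 ± 0.11, IKBKE by 0.44 ± 0.12, the phosphatase PTPN2 by 0.42 ± 0.12, the immunoproteasome subunit PSMB9 by 0.46 ± 0.08 and the peptide transporter TAP1 by 0.45 ± 0.08. In H460 IL10RB (-0.39 ± 0.09), JAK1 (-0.32 ± 0.08) and the repressor IRF2 (-0.42 ± 0.09) were lower, and NLRC5 was higher (0.59 ± 0.09, adjusted p = 8.15e-05). No pathway gene was called in more than 2 lines. NLRC5 was called higher in H441 and H460, and 4 were called lower in 2 lines each, JAK1 in A549 and H460, IL10RB in H441 and H460, MYD88 in H2009 and H441, and IKBKE in H441 and A549. JAK1 missed only the limit on fold change in H2009 (-0.30, adjusted p = 0.0336) and in H441 (-0.30, adjusted p = 0.0124). So did the peptide transporter genes TAP2 in H2009 (-0.3195, adjusted p = 0.0488) and TAP1 in H460 (0.29, adjusted p = 0.0304).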

How the data were processed

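Total RNA from 24 cultures, 3 for each of 8 groups, was hybridized to Affymetrix Human Gene 1.0 ST arrays. The authors deposited log2 values from Affymetrix Power Tools, where the Robust Multiarray Average (RMA) subtracts background, quantile-normalizes the arrays and combines the probes of each transcript cluster. The sources used here give neither versions nor scan dates, so batches could not be checked. RMA draws low values together, and the number of arrays limits the precision.

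Of 33252 clusters, 19460 with 1 symbol gave 18417 genes (highest mean cluster, current symbol by Entrez ID); 1754 list several symbols and 12038 none. USP18 also lies in a cluster shared with USP41P, which was not used. limma 3.58.1 in R 4.3.3 was fitted with 1 coefficient per group over all arrays, so that all lines share each gene's spread, with Benjamini-Hochberg adjustment over all genes in each comparison. Calls needed both a log2 change of at least 0.3219 in size and an adjusted p under 0.05, and the F tests the adjusted p alone. The script was tested on simulated data.

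The members and lists were chosen with earlier results of these data known. Every member is named; array values are given for members called in 2 or more lines and, per line, for the 3 largest called increases and decreases. Alternatives were each line fitted alone, array weights, a trended and robust spread, equal array medians, cyclic loess, a filter on low values, the mean over clusters, other thresholds, the methods' t-test with and without adjustment, a replicate block, no H441 arrays, and each array left out. Promoter windows are from RefSeq, GRCh38.p14. Roles and pathway lists were written from general knowledge.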

Additional observations from a re-analysis of the deposited data

Results flagged for a closer look

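For 19 members the effect of δ193 differed among the 4 lines by limma's F test, with Benjamini-Hochberg adjustment over all genes. The adjusted p was 1.005e-05 for SAMD9, 3.022e-05 for RIGI, 0.0003382 for SAMD9L, 0.0003905 for both DDX60 and OASL, 0.0003917 for IFI44, 0.0006146 for IFIT2 and 0.000752 for BST2. It was 0.001887 for HERC5, 0.00306 for TLR3, 0.005085 for IFIT1, 0.006612 for IFI27 and 0.007036 for IFITM1. For IFI35 it was 0.01331, for IFI6 0.01518, for IFI44L 0.01671, for IFIT3 0.02182, for OAS1 0.02379 and for IFITM2 0.04984. IFI35 was called in no single line.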

How the results depend on the processing

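No called change turned its direction under any alternative run. The share of all genes called was not computed for these runs, so their counts describe the members only. The count of members called in H441 fell from 14 to 6 with the line fitted alone and to 6 with array weights, which gave the H441 δ193 arrays a weight of 0.31. The same 6 members (RIGI, DDX60, OASL, IFIT2, SAMD9 and IFI44) were kept in both, and IFIT1, IFIT3, IFITM1, SAMD9L, USP18, PARP14, IFI6 and IFI27 were lost. With only genes above the median level, 23 members remained, of which 8 were called in H441 and 23 differed in baseline (42 of 43 without the filter). The spread of H441 also enters the other lines: without its arrays, 7 members were called in A549 against 4, and 11 in H460 against 7. H460 gave 14 when fitted alone and 13 with array weights. At an adjusted p under 0.01, the counts were 3 in H2009, 2 in A549, 4 in H460 and 3 for the class difference (6 before). By the methods' t-test within a line, the unadjusted counts were 14 in H460, 10 in H441, 8 in H2009 and 6 in A549, and after Benjamini-Hochberg 8 in H460, 2 in H2009, 0 in H441 and 0 in A549.

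Leaving out each array in turn gave 11 to 15 calls in H441, 5 to 9 in H460, 3 to 8 in H2009 and 2 to 6 in A549, 40 to 43 members with different baselines, 17 to 20 whose change differed among lines and 5 to 7 between classes. The H2009 count fell to 3 without δ193 replicate 2 or 3. The A549 count fell to 2 without A549 δscr replicate 1 or 2, A549 δ193 replicate 2, H2009 δ193 replicate 3, H460 δscr replicate 2 or 3, or H460 δ193 replicate 1 or 2. Among calls not described above, USP18 in H441 was lost without δscr replicate 2 or δ193 replicate 1 or 2 (adjusted p 0.0664 to 0.162), IFI6 in H441 without δscr replicate 1 or 2 or δ193 replicate 3 (0.0809 to 0.097), and IFI27 in H441 without δscr replicate 1 (0.0538). HERC6 in A549 was kept in 7 of 24 such fits (adjusted p up to 0.27 where lost). It was lost without any H2009, A549 δscr or H460 δscr array, H441 δscr replicate 2, A549 δ193 replicate 2 or 3, or H460 δ193 replicate 1 or 2.

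Replicate numbers did not pair the samples: the deviations of same-numbered arrays correlated over 0.1 in 2 of 12 pairs, and the same number correlated best in 6 of the 12. With the replicate number as a block, 11 members were called in H460, 7 in H2009, 14 in H441 and 4 in A549, and RIGI in H2009 was lost (adjusted p = 0.0537).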
